A study of Mus musculus with 6 samples.

Results

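The 10 genes of the core circadian clock loop were examined in thyroid glands of mice. They are the activators *Arntl* (also called Bmal1), *Clock* and *Npas2*, the repressors *Per1*, *Per2*, *Per3*, *Cry1* and *Cry2*, and the second-loop repressors *Nr1d1* and *Nr1d2*. All 10 are among the 21878 genes of the count table and all 10 had enough counts to be tested. They were chosen by their textbook place in the loop, after the comparison of the groups in these same 6 libraries had shown differences in circadian genes. The differences between the groups are therefore given below as a description of the 10 genes, without a p for any of them.

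The study asked what changes in the thyroid when *Tet1*, which encodes an enzyme that oxidises 5-methylcytosine in DNA, is deleted there. RNA was sequenced from thyroids of female mice of 12 weeks, 3 *Thy-Tet1*+/+ mice and 3 mice labelled *Thy-Tet1*-/-, with 1 library per mouse and no other treatment. The *Thy-Tet1*-/- line carries floxed *Tet1* alleles and a Cre transgene that acts in thyroid follicular cells, so that other cells of the gland keep the gene, and the controls were wild-type littermates. The hour of collection and the light cycle are not given in the sources used here. Nothing in the labels says which mice shared a litter or a day of collection.

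In each cell the clock is a feedback loop of transcription. ARNTL pairs with CLOCK or with its relative NPAS2 and binds the E-box sequence of its targets, among them the Per, Cry and Nr1d genes. The PER and CRY proteins gather, enter the nucleus and block that pair, while NR1D1 and NR1D2 (REV-ERB) silence *Arntl*, *Npas2* and, more weakly, *Clock* through the elements that the ROR activators also use. D-box factors such as DBP add a further turn. Over a day *Arntl* transcripts therefore peak when those of *Nr1d1* are low, and the loop runs in most tissues, the thyroid included.

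The sequences just before the start sites are shown first for 5 of the genes, because the loop is known to act through short elements near its genes' starts. RefSeq promoters (build GRCm38.p6) were found for 9 of the 10 genes, in 13 windows, and *Per2* had no entry. In the 250 bases before each start, 3 motifs were searched on both strands, the E-box CACGTG, the nuclear receptor half-site AGGTCA and the D-box TTATGNAA. No 2 of the matches overlapped. Of all 32851 windows of this length, 6.02% held the E-box, 14.0% the half-site and 3.07% the D-box. Among the 9 genes, the E-box was found for *Per1* and *Cry1*, the half-site for *Clock*, *Per1* and *Nr1d2*, and the D-box for *Per1* and *Per3*. These are genes, some with several windows, whereas the shares above are of windows. Of the 13 windows, 5 held a motif and 8 held none, among them the other *Per1* window and the other *Clock* windows. The *Clock* window with the half-site, chr5:76303503-76303752, lies inside the annotated gene. Capitals mark the matches, and each sequence is written 5′ to 3′ on the strand of its gene.
Per1: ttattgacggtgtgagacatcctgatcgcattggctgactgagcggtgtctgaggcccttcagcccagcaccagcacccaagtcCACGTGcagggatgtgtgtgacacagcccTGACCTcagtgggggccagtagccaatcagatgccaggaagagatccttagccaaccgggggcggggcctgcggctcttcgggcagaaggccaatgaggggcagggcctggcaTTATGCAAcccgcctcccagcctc
Per3: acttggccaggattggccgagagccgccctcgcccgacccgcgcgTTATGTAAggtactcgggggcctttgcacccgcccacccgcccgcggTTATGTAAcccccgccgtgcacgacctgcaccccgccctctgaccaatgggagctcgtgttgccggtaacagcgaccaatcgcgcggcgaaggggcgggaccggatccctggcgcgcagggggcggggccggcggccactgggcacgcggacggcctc
Cry1: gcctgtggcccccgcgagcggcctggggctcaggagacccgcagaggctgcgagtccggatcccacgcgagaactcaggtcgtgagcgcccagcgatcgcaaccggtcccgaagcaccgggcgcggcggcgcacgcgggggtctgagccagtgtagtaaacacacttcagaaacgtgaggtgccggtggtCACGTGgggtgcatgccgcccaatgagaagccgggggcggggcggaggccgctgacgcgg
Nr1d2: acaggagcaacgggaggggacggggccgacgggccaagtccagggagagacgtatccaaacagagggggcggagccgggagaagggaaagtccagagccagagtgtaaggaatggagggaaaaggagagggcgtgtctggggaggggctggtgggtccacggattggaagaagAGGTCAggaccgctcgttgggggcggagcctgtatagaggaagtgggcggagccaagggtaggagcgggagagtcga
Arntl: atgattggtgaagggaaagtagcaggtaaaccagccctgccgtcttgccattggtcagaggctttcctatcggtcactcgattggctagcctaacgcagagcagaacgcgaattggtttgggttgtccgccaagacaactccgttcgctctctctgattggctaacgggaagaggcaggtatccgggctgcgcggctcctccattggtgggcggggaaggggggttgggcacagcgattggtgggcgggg

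The windows lie at chr11:69098699-69098948 (plus strand) for *Per1*, chr4:151044666-151044915 (minus strand) for *Per3*, chr10:85185055-85185304 (minus strand) for *Cry1*, chr14:18239107-18239356 (minus strand) for *Nr1d2* and chr7:113207215-113207464 (plus strand) for *Arntl*. *Per1* was the one member with all 3 motifs, an E-box 166, a half-site 137 and a D-box 24 bases before its start. *Per3* held 2 copies of the D-box, 205 and 158 bases before the start. In *Cry1* the E-box began 60 bases before the start, and in *Nr1d2* the half-site began 77 bases before it. An *Arntl* window is shown because *Arntl* was lower where *Nr1d1* was higher. It held none of the 3 motifs, and neither did the second *Arntl* window, chr7:113207261-113207510, which is not shown. A match is a description of letters, and no match says only that these letters are not in this window.

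Total counts ranged from 8867683 to 19950898 per library, with the shallowest in *Thy-Tet1*+/+ replicate 1, and a level of 3 counts was at most 0.338 CPM, counts per 1000000 counts. Levels are given as CPM of the library totals scaled by the trimmed mean of M-values (TMM). *Tet1* itself had 5.69, 3.80 and 3.44 CPM in the *Thy-Tet1*+/+ libraries and 9.37, 9.60 and 12.2 CPM in the libraries labelled *Thy-Tet1*-/-, thus more and not less transcript under the knockout label. Its log2 fold change was 1.28 with a standard error of 0.27, and the edgeR quasi-likelihood test gave it an adjusted p of 0.101. Counts over single exons of *Tet1* were not analysed here, and every direction below is that of the labels. The thyroid markers *Tg* and *Pax8* were abundant in all 6 libraries, whereas *Slc26a4* had at most 0.277 CPM. The library protocol speaks of retinas, but 7 photoreceptor markers summed to at most 1.52 CPM in any library, with *Crx* and *Rbp3* at 0 in all. Of 10 marker lists, 9 had summed levels that overlapped between the groups. The follicular list did not, with 256781 to 316936 CPM in the controls and 193908 to 239752 CPM in the libraries labelled *Thy-Tet1*-/-, mostly from *Tg*. Its genes did not share a direction. All of the 11 but *Slc26a4* were tested, and 3 were past the limits defined below. These were *Tshr* (log2 fold change -2.16, adjusted p = 0.0466 by edgeR) and *Iyd* as lower and *Nkx2-1* as higher. Of all tested genes, 3.66% were past the limits as lower and 5.54% as higher. *Pax8* was higher with the groups apart, at 258 to 262 CPM in the controls and 330 to 369 CPM in the others, but not past the limits. The overlapping sums, controls first, were 618 to 5471 and 37.9 to 5653 CPM for skeletal muscle, 57.4 to 12393 and 4048 to 8899 CPM for parathyroid, and 4715 to 20859 and 10219.6 to 16922 CPM for C cells. They were 28.4 to 257 and 112 to 791 CPM for adipocytes, 176 to 809 and 149 to 339.7 CPM for red blood cells, 296 to 418 and 323 to 441 CPM for endothelium, and 38.4 to 119 and 41.6 to 49.0 CPM for macrophages. In these lists 1 adipocyte and 1 macrophage gene were past the limits. The T cell list stood apart in 2 libraries, with a sum of 90.0 CPM in *Thy-Tet1*+/+ replicate 1 and 308 CPM in the library labelled *Thy-Tet1*-/- replicate 3, against 1.14 to 4.12 CPM in the other 4.

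The 10 genes did not differ between the groups in a single direction. All 3 activators and *Per1* were lower in the libraries labelled *Thy-Tet1*-/-, whereas *Per2*, *Per3*, *Cry2*, *Nr1d1* and *Nr1d2* were higher and *Cry1* overlapped. A gene was taken as past the limits when it differed by more than 1.5-fold with an unadjusted p under 0.05 in the edgeR fit to all tested genes. In this sense 4 of the 10 genes were past the limits as higher (*Per2*, *Per3*, *Cry2* and *Nr1d1*), where 5.54% of the 14143 tested genes were, and 4 as lower (*Arntl*, *Clock*, *Npas2* and *Per1*), where 3.66% were. The 2 groups were fully apart for 5 of the 10 as higher, beside 12.5% of all tested genes, and for 4 as lower, beside 14.3%. The median size of the log2 fold change was 0.97 over the 10 genes and 0.26 over all tested genes, and 5 of the 10 lay beyond 1 in either direction, as did 951 of the 14143. Since this comparison was in view when the genes were chosen, nothing is read from these counts. In bulk tissue, fewer cells of a type and less RNA per cell cannot be told apart.

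**Figure D1:**
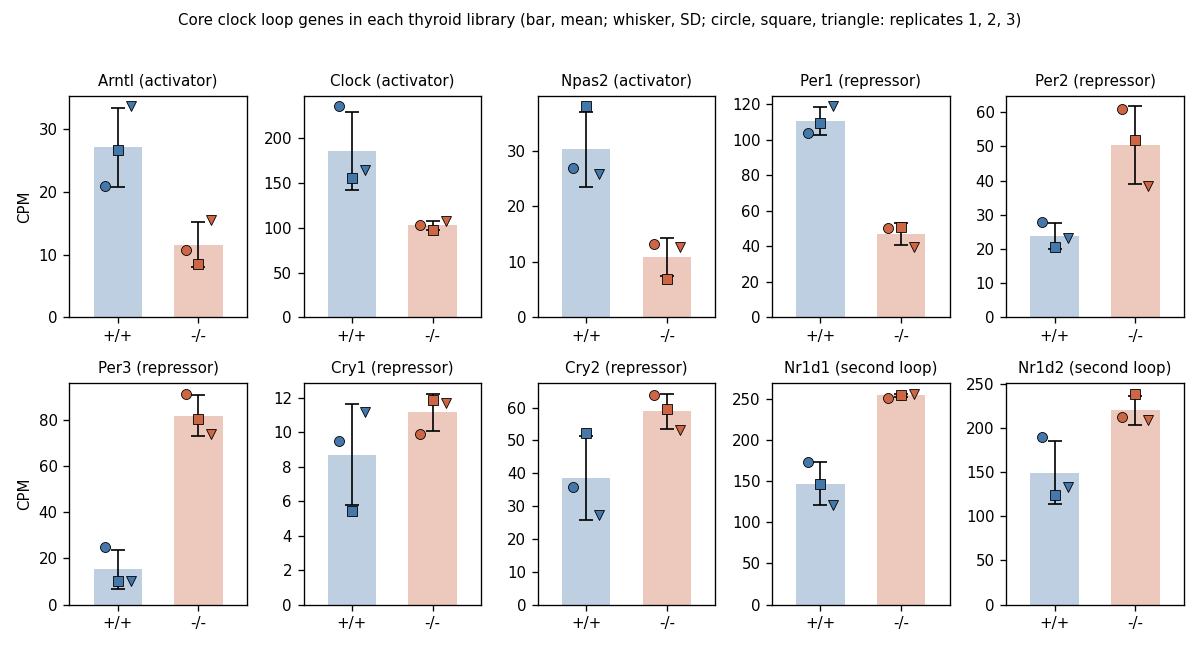
Levels of the 10 core clock loop genes (CPM, linear axes from 0) in the 3 Thy-Tet1+/+ libraries (blue) and the 3 libraries labelled Thy-Tet1-/- (red). Bars are means, whiskers SD and symbols single mice; in 9 of the 10 panels no red symbol falls within the range of the blue ones, and Cry1 is the exception.

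*Arntl* (NCBI gene 11865, chr7:113207465-113314126, plus strand in GRCm38) encodes the activator without which the loop stops. It had 20.9, 26.7 and 33.6 CPM in *Thy-Tet1*+/+ replicates 1, 2 and 3 and 10.7, 8.53 and 15.5 CPM in the libraries labelled *Thy-Tet1*-/-. Every library labelled *Thy-Tet1*-/- lay below every control, with replicate 3 the highest of them. The means were 27.0 ± 6.35 CPM and 11.6 ± 3.60 CPM (SD, n = 3 each), a level 2.34-fold lower (log2 fold change -1.22, standard error 0.27).

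*Npas2* (chr1:39193731-39363236, plus strand), the relative of CLOCK that can take its place beside ARNTL, had the most negative log2 fold change of the 10. Its values were 26.9, 37.9 and 25.8 CPM in the controls and 13.2, 6.99 and 12.6 CPM in the libraries labelled *Thy-Tet1*-/-. Control replicate 2 was the highest of all and the replicate 2 labelled *Thy-Tet1*-/- the lowest. The log2 fold change was -1.47 (standard error 0.28), which is 2.77-fold lower.

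*Clock* (chr5:76209868-76304792, minus strand), the histone acetyltransferase partner of ARNTL, had 235, 156 and 165 CPM in the controls. The libraries labelled *Thy-Tet1*-/- had 103, 97.3 and 108 CPM, within a far narrower range than the controls, of which replicate 1 was the highest. *Clock* was 1.80-fold lower (log2 fold change -0.85, standard error 0.18). The 3 activators thus shared a direction, with *Npas2* and *Arntl* differing more than *Clock* in the point estimates.

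The Period genes split. *Per1* (chr11:69095217-69109960, plus strand), an early repressor that also responds rapidly to outside signals, had 104, 109.5 and 119 CPM in the controls and 50.5, 50.8 and 39.8 CPM in the libraries labelled *Thy-Tet1*-/-. *Per1* was the most even of the 10 within groups, with a within-group SD of 0.16 on the log2 CPM scale. It was 2.35-fold lower (log2 fold change -1.24, standard error 0.13).

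*Per2* (chr1:91415982-91459324, minus strand), the repressor whose protein sets much of the period length, went the other way. It had 27.8, 20.5 and 23.1 CPM in the controls and 60.8, 51.8 and 38.4 CPM in the libraries labelled *Thy-Tet1*-/-. The groups were apart, although replicate 3 labelled *Thy-Tet1*-/- was nearer to the controls than the other 2. The level was 2.12-fold higher (log2 fold change 1.08, standard error 0.20).

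*Per3* (chr4:151003652-151044665, minus strand), the Period gene that the loop can best do without, had the largest difference of the 10. Its values were 25.0, 10.4 and 10.3 CPM in the controls and 91.6, 80.4 and 74.0 CPM in the libraries labelled *Thy-Tet1*-/-. Control replicate 1 stood above the other 2 controls, and still below every library labelled *Thy-Tet1*-/-. Mean levels were 15.2 ± 8.50 CPM and 82.0 ± 8.93 CPM (SD, n = 3 each), 5.47-fold higher (log2 fold change 2.45, standard error 0.37).

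The cryptochromes, which carry most of the repression of ARNTL and CLOCK, differed less. *Cry1* (chr10:85131700-85185064, minus strand) had 9.49, 5.45 and 11.2 CPM in the controls and 9.91, 11.9 and 11.7 CPM in the libraries labelled *Thy-Tet1*-/-, so that the groups overlapped. Its log2 fold change was 0.36 (standard error 0.29), not past the limits, and it rested on single controls, at 0.11 without control replicate 2 and 0.59 without control replicate 3, with no call in either case. *Cry2* (chr2:92403646-92434043, minus strand) had 35.8, 52.3 and 27.3 CPM in the controls and 63.9, 59.6 and 53.3 CPM in the libraries labelled *Thy-Tet1*-/-. The lowest library labelled *Thy-Tet1*-/- and the highest control were less than 1 CPM apart. *Cry2* was 1.53-fold higher (log2 fold change 0.61, standard error 0.24), just past the limit of 1.5-fold, and it dropped out when any library other than control replicate 2 was left out, with log2 fold changes from 0.41 without control replicate 3 to 0.67.

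*Nr1d1* (chr11:98767932-98775333, minus strand), which encodes the heme-binding repressor REV-ERBα, had 174, 147 and 121 CPM in the controls and 252, 256 and 256 CPM in the libraries labelled *Thy-Tet1*-/-. The 3 libraries labelled *Thy-Tet1*-/- were almost level with one another, while the controls spread. *Nr1d1* was 1.73-fold higher (log2 fold change 0.79, standard error 0.15). Its exons overlap those of *Thra* on the opposite strand by 263 bases, 8.55% of its exon length, and the sources used here do not say if reads were counted by strand. *Thra*, named for that overlap, was lower, with 71.9, 69.0 and 60.9 CPM and 55.7, 44.1 and 55.1 CPM (log2 fold change -0.38). Smaller overlaps, with transcripts that are not in the count table, were 33 bases for *Arntl* and 295 bases for *Cry2*.

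*Nr1d2* (chr14:18204054-18239127, minus strand), encoding the related REV-ERBβ, had 189.9, 124 and 133 CPM in the controls and 213, 239 and 209 CPM in the libraries labelled *Thy-Tet1*-/-. Control replicate 1 came close to the lowest library labelled *Thy-Tet1*-/- without reaching it. The log2 fold change of 0.56 (standard error 0.18), or 1.48-fold, lay just inside the limit, and it was past the limits without control replicate 1 (0.77) or without replicate 3 labelled *Thy-Tet1*-/- (0.59).

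**Figure D2:**
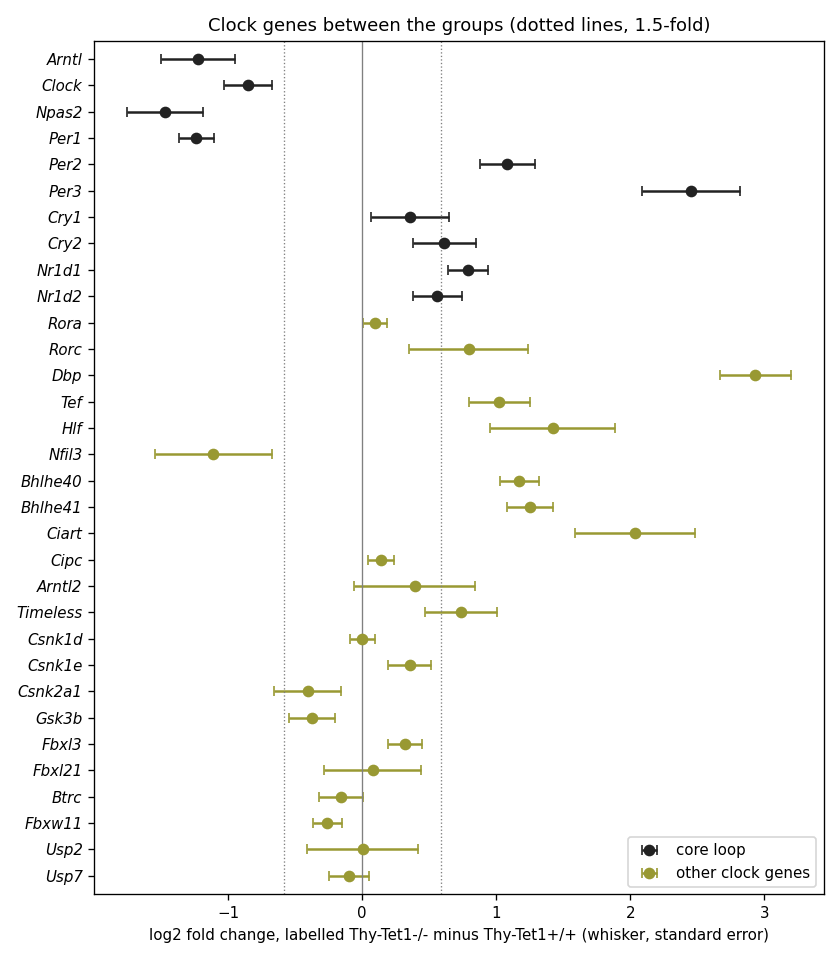
Log2 fold change with its standard error from the edgeR fit (horizontal axis) for the 10 core loop genes (black) and the 22 tested genes of the wider clock (olive), libraries labelled Thy-Tet1-/- minus Thy-Tet1+/+. Dotted lines mark 1.5-fold. Arntl, Clock, Npas2 and Per1 lie left of them, and Per3 reaches 2.45 on the right. The kinases and ubiquitin enzymes at the bottom lie between the dotted lines, from -0.40 to 0.35.

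**Figure D3:**
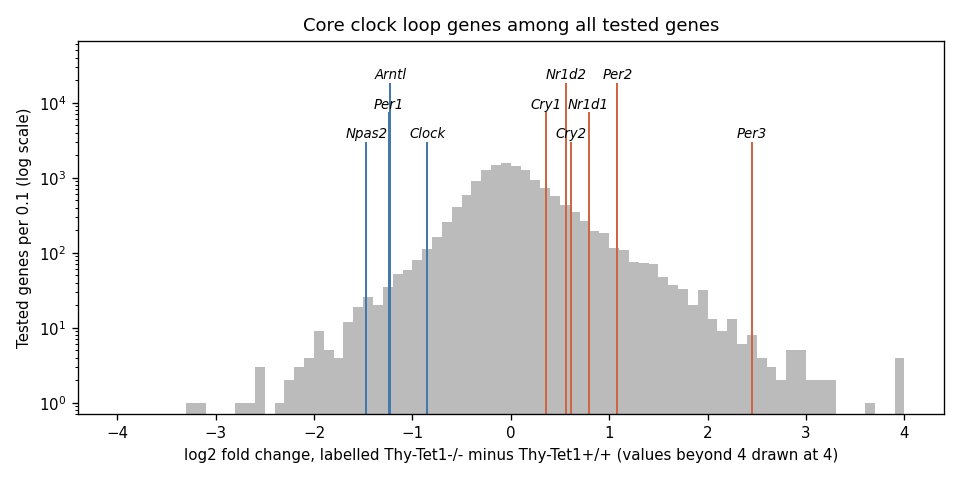
Log2 fold changes of all 14143 tested genes (grey, number per 0.1 on a log axis) with the 10 core loop genes drawn as lines, blue where lower and red where higher in the libraries labelled Thy-Tet1-/-. The grey values centre on 0, and Per3 at 2.45 and Npas2 at -1.47 lie farthest out among the 10.

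Ratios of 2 genes within a library do not depend on how the libraries are scaled, which bears on genes that differed in opposite directions. The log2 ratio of *Nr1d1* to *Arntl* was 3.06, 2.46 and 1.85 in *Thy-Tet1*+/+ replicates 1 to 3 but 4.56, 4.90 and 4.04 in the knockout-labelled ones, with 2.05 between the 2 means. The lowest of the knockout-labelled libraries exceeded the highest control by 0.99. For *Per3* to *Arntl* the difference between the means was 3.80, and for *Nr1d2* to *Npas2* it was 2.09. Within the Period genes, the log2 ratio of *Per2* to *Per1* was -1.90, -2.42 and -2.36 in the controls but 0.27, 0.03 and -0.05 in the knockout-labelled ones. The means of that ratio were 2.31 apart, with the 2 groups well separated. The ratio of *Cry2* to *Cry1* overlapped between the groups. In every other pair the first gene was apart as higher and the second as lower, so the ratio had to be apart too. The separation of these ratios therefore adds nothing to that of the single genes. All ratios except that of *Nr1d1* to *Arntl* were picked after the values had been seen. The 2 genes of that ratio were themselves chosen with the comparison of the groups in view.

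**Figure D4:**
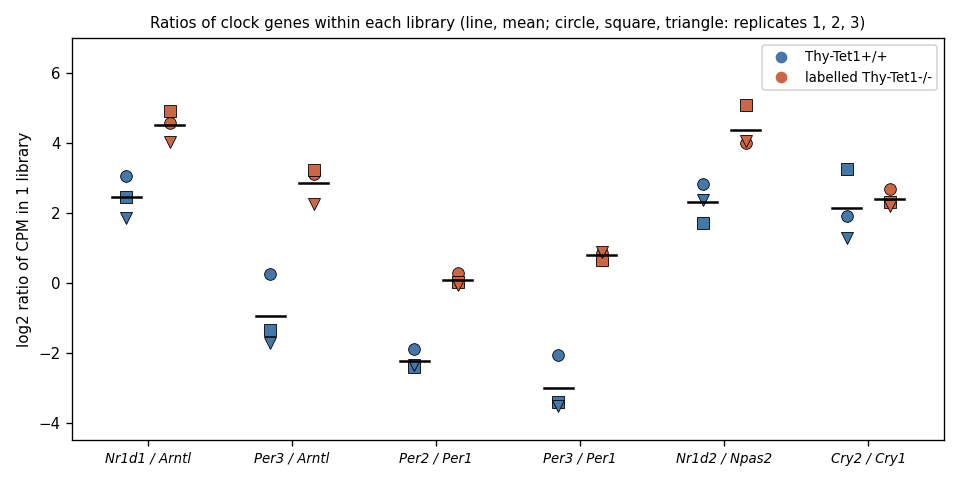
Log2 ratio of the CPM of 2 clock genes in each library (vertical axis) for 6 pairs, Thy-Tet1+/+ in blue and labelled Thy-Tet1-/- in red, with a line at each mean. Blue and red symbols are apart for the first 5 pairs and overlap for Cry2 to Cry1; the height of a pair also depends on the lengths of its genes, so only blue and red of the same pair can be compared.

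The within-group SD of log2 CPM ran from 0.16 for *Per1* to 0.53 for *Per3*, where the median of all tested genes was 0.25. Of the 10 genes 6 were above that median, near the even split that a median gives over all tested genes. Among the controls, replicate 1 had the lowest *Arntl* and the highest *Clock*, *Per2*, *Per3*, *Nr1d1* and *Nr1d2*. Among the libraries labelled *Thy-Tet1*-/-, replicate 3 had the highest *Arntl* and *Clock* and the lowest *Per1*, *Per2*, *Per3*, *Cry2* and *Nr1d2*. These 2 libraries are also those with the T cell markers. Without both of them, 8 of the 10 genes were past the limits, *Nr1d2* in place of *Cry2*. The sum of the follicular markers was lower in the libraries labelled *Thy-Tet1*-/-, with single genes in both directions. The part of follicular cell content in the clock gene values was not tested.

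To compare levels between the genes, CPM was divided by the length of the merged exons in GENCODE M21, from 3.08 kb for *Nr1d1* to 13.7 kb for *Clock*. In the controls *Nr1d1* led with 47.9 ± 8.54 CPM per kb (SD, n = 3), before *Nr1d2* with 27.6 ± 6.59, *Per1* with 19.7 ± 1.36 and *Clock* with 13.5 ± 3.17 CPM per kb. These 4 and the next were apart from one another in every library, while from *Npas2* downward through *Cry2*, *Per2*, *Arntl*, *Cry1* and *Per3* each neighbour overlapped the next. In the libraries labelled *Thy-Tet1*-/-, *Nr1d1* with 82.8 ± 0.772 CPM per kb and *Nr1d2* with 40.7 ± 3.02 CPM per kb again led. *Cry2*, *Per2*, *Per3*, *Per1* and *Clock* followed in a band from 6.56 to 10.4 CPM per kb, in which each neighbour overlapped the next. *Per3* moved from the last place to the fifth, and *Arntl*, with 1.54 ± 0.478 CPM per kb, became the lowest, overlapping *Npas2*.

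**Figure D5:**
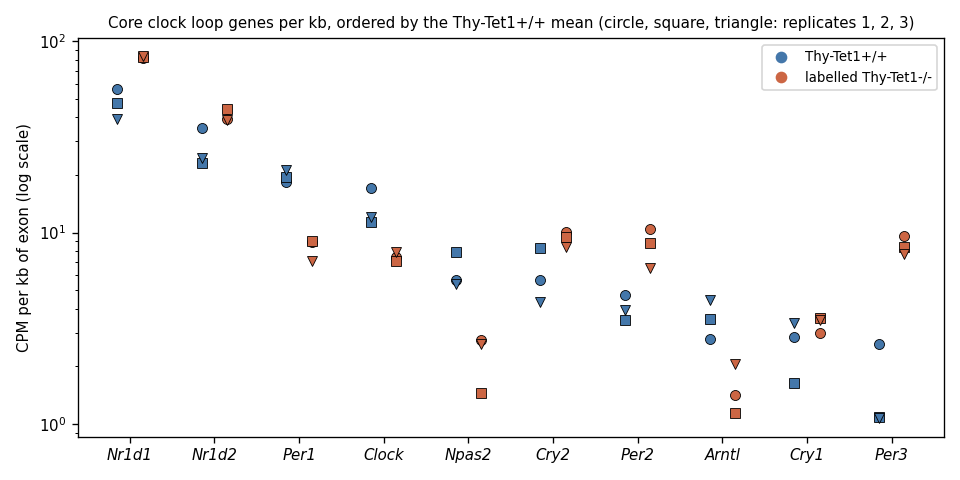
CPM per kb of exon (log axis) of the 10 core loop genes in each library, ordered by the mean of the Thy-Tet1+/+ libraries (blue), with the libraries labelled Thy-Tet1-/- in red. Nr1d1 and Nr1d2 lie on top in both groups, and Per3 moves from the lowest blue values to the red band between 6.56 and 10.4 CPM per kb.

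The wider clock was followed through 23 further genes, of which 22 were tested, all but *Rorb*, which had too few counts. Of these 22, 7 were past the limits as higher and 1 as lower, beside 5.54% and 3.66% of all tested genes. With adjustment over all tested genes 1 of the 22, *Dbp*, had an adjusted p under 0.05, as did 0.113% of all tested genes. The list was written with the result for *Dbp* already known.

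All 4 D-box factors were past the limits. *Dbp*, *Tef* and *Hlf*, which activate through the D-box, were higher by log2 fold changes of 2.93, 1.02 and 1.42, with adjusted p of 0.0466, 0.106 and 0.181 by edgeR. *Nfil3*, which represses through the same element and is itself silenced by REV-ERB, was the gene that was lower. It had 4.86, 3.64 and 6.33 CPM in the controls and 1.69, 3.61 and 1.58 CPM in the libraries labelled *Thy-Tet1*-/- (log2 fold change -1.11, standard error 0.44, adjusted p = 0.239 from edgeR). *Nfil3* thus sat on the side of *Arntl* and *Npas2*, and the groups were nearly touching, at 3.64 and 3.61 CPM. *Nfil3* was not past the limits when control replicate 1 or 3, or replicate 1 or 3 labelled *Thy-Tet1*-/-, was left out, with log2 fold changes from -1.12 to -0.89. *Hlf* was not past them without control replicate 3 (1.22).

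Of the 4 accessory repressors of ARNTL and CLOCK, 3 were past the limits. *Bhlhe40* (DEC1) had 39.0, 35.6 and 43.0 CPM in the controls and 98.2, 93.4 and 73.7 CPM in the libraries labelled *Thy-Tet1*-/- (log2 fold change 1.17, adjusted p = 0.0599 from edgeR). *Bhlhe41* (DEC2) had 16.7, 13.6 and 16.6 CPM and 37.0, 43.6 and 30.9 CPM (log2 fold change 1.25, adjusted p = 0.0719 from edgeR). *Ciart* (CHRONO) was a rare transcript, at 0.830, 0.535 and 0.832 CPM against 4.09, 3.08 and 1.83 CPM (log2 fold change 2.04, adjusted p = 0.104 from edgeR). In all 3 the groups were apart, and all 3 were higher, as were *Per2* and *Per3*.

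The remaining classes held 1 gene past the limits. *Timeless*, a relative of a fly clock gene, had 8.66, 8.45 and 7.10 CPM in the controls against 10.3, 11.6 and 18.5 CPM in the libraries labelled *Thy-Tet1*-/-, highest in replicate 3 (log2 fold change 0.74, standard error 0.27, adjusted p = 0.211 by edgeR). Without that replicate the log2 fold change of *Timeless* was 0.43 and not past the limits, and it was also not past them without control replicate 2 (0.78) or 3 (0.65). The 2 tested ROR activators, which compete with REV-ERB at the *Arntl* promoter, were both within the limits. The 4 kinases and 6 ubiquitin enzymes that set the stability of the PER and CRY proteins gave 0 genes past the limits in the edgeR fit, with log2 fold changes from -0.40 to 0.35, and 1 of these 10 had an unadjusted p below 0.05.

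The CPM values of all 10 genes rest on a scaling of whole libraries, so another scaling was tried. When the libraries were scaled to 10 epithelial genes (among them *Cdh1* and *Krt8*, which were themselves lower under TMM), the median log2 fold change of all tested genes moved from near 0 to 0.35 and 95.3% of the genes past the limits were higher, against 60.2% with TMM. All 10 core genes kept their direction. *Clock*, at -0.55, then fell inside the limits and *Nr1d2*, at 0.86, passed them.

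The genes whose pattern over the 6 libraries was most like that of *Arntl*, by the root mean square difference of log2 CPM centred on each gene's mean, were *Spon2*, *Ext1*, *Nkd1*, *Sash1* and *Dgkg*, at 0.21 to 0.24. Of these, *Spon2* had only 15 to 53 counts per library, and *Dgkg* overlapped between the groups. *Npas2*, *Per1* and *Clock* followed *Arntl* less closely, at 0.36, 0.39 and 0.47. For *Nr1d1* the closest were *Ptch1*, *Bahcc1*, *Slit3*, *Plag1* and *Phlda1*, at 0.07 to 0.09, and *Nr1d2* was at 0.18, *Cry2* and *Per2* at 0.27. This likeness describes levels over 6 libraries and nothing else.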

How the data were processed

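Thyroid RNA of 3 mice per group was sequenced. The authors deposited raw counts per gene, not normalized; the labels' protocol describes poly(A) selection and names 2 library kits, of which 1 is directional; the submitters' processing notes name the build mm10, and the aligner and counting program are not given in the sources used here. The table held 0 columns of other libraries. Of the 21878 symbols, 27 that had become dates were restored from NCBI gene identifiers.

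In R 4.3.3, edgeR 4.0.16 was fitted to the counts (filterByExpr, TMM, glmQLFit and glmQLFTest, Benjamini-Hochberg adjustment over 14143 genes), and limits of 1.5-fold (0.585 on the log2 scale) and an unadjusted p of 0.05 were taken after the study's own. Standard errors are the log2 fold change divided by the square root of the quasi-likelihood F. Log2 CPM had a prior count of 2. DESeq2 1.42.0 and limma 3.58.1 (voom) served as alternatives. P-values measure the spread between these mice, and floors of 3 counts cover counting error only. The fit was tested on simulated counts. Libraries of a group differed far beyond sampling noise (chi-square per degree of freedom of at least 39.8), so none was the same library sequenced again. This measure cannot tell 2 preparations of 1 gland from 2 mice.

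The 10 genes, the list of other clock genes and the marker lists were chosen with earlier results of these data known. The text names all 10, *Tet1*, those of the other clock genes past the limits, and for likeness the 5 genes closest to *Arntl* and to *Nr1d1*. *Rorb*, *Thra*, single markers, the 2 scaling genes and all ratios but that of *Nr1d1* to *Arntl* were chosen after their values were seen. Coordinates and exon overlaps came from GENCODE M21 (GRCm38, the same build as mm10) and promoter sequences from RefSeq (GRCm38.p6).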

Additional observations from a re-analysis of the deposited data

How the results depend on the processing

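Over the 14 alternatives all 10 core clock genes kept their direction, and 7 or 8 of them were past the limits in each. The count of all genes past the limits moved by over 1.5 times only with scaling to 10 epithelial genes, from 1301 to 2465. The count of genes with an adjusted p under 0.05, 16 in the edgeR fit, was 1192 with DESeq2, 25 with at least 10 counts in every library, 0 with epithelial scaling (2821 with an unadjusted p under 0.05), 0 with the replicate block (1900) and 0 to 1 with any 1 library left out (1769 to 2980). It was also 0 with 2 libraries per group, an alternative added once the data had been seen, which left out both libraries with T cell markers (2708). Of the other clock genes, *Dbp* was the 1 with an adjusted p under 0.05. There were 6 with DESeq2, 2 with at least 10 counts in every library, and 0 with epithelial scaling, with the replicate block, with each library left out and with 2 per group. The adjusted p of *Dbp* ranged from 1.00e-26 to 0.242 over the 14 alternatives. Single calls at the limits were lost for *Nfil3* in 7, *Cry2* in 6, *Timeless* in 5, *Hlf* in 1 and *Clock* in 1 of the alternatives, and gained for *Nr1d2* in 4. The cause was not tested. Same-numbered mice did not deviate together (correlations across genes of -0.17, -0.37 and -0.19), which gave no sign that the numbers pair them. Such correlations over all tested genes cannot exclude a shared litter or day of collection. With the replicate number as a block 8 core genes were past the limits, as were 1145 genes in all. The depth of the libraries was not varied.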
